A study of Rattus norvegicus with 24 samples.

Results

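The response to dihydrotestosterone (DHT) was compared between prostate and skin of castrated male rats, as the change with DHT in prostate minus the change with DHT in skin. The 12 arrays of these tissues, of 24 arrays in the series, were chosen by their labelled tissue and treatment, and they form 4 groups of 3 arrays: prostate with vehicle, prostate with DHT, skin with vehicle and skin with DHT. All 4 groups came from Sprague-Dawley males of 12 weeks that had been castrated, per the labels. After 3 days the animals received a single intraperitoneal injection of DHT at 10 mg/kg, or of vehicle, and tissue was taken 16 h later. The vehicle groups are therefore castrated animals without DHT rather than intact males. The series' design text calls the 3 samples of a group biological replicates, but the labels do not say that each came from its own animal, nor whether a prostate and a skin of the same number came from the same animal. The p-values below measure the spread between these samples.

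DHT is the potent androgen made from testosterone in target tissues, and it acts through the androgen receptor, a transcription factor that binds DNA once it has bound the hormone. Prostate epithelium depends on androgens for its secretion and regresses after castration, while in skin the sebaceous glands and hair follicles are the best-known androgen targets. Cholesterol is built from acetyl-CoA through mevalonate, isoprenoid units, squalene and lanosterol, and fatty acids are built by synthesis, elongation and desaturation. The genes of both pathways are controlled by the SREBP transcription factors, which are processed when sterols in the membrane of the endoplasmic reticulum (ER) run low. Secretory cells also need chaperones and disulfide isomerases that fold proteins inside the ER.

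Levels are log2 values of the processed signal, scaled so that 0 is the 75th percentile of the array concerned and 1 unit is a change of 2-fold. An effect is the mean level with DHT minus the mean with vehicle in 1 tissue, and the difference of effects is the effect in prostate minus the effect in skin. Tested genes had a probe that cleared the background by the scanner software's criterion (well above background) on 3 or more of the 6 arrays in each tissue, which left 23032 genes or unnamed transcripts, 6103 of them with a gene symbol. A gene is said to have changed, risen or fallen where limma's adjusted p (Benjamini-Hochberg over all 23032) was below 0.05.

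The tissue labels were checked against marker genes. The mean level of 6 prostate epithelium markers lay between 3.48 and 4.41 on the prostate arrays and between -1.25 and 0.38 on the skin arrays, and that of 7 keratinocyte markers lay between 5.42 and 6.56 in skin and between 1.14 and 1.77 in prostate. Probasin (Pbsn), a secreted protein of the rat prostate, was well above background on all 6 prostate arrays and on 0 of the 6 skin arrays. The skin arrays were less alike than the prostate arrays: the correlation between replicates over genes ran from 0.913 to 0.951 in skin with vehicle and from 0.942 to 0.975 in skin with DHT, against 0.973 to 0.987 in prostate. Before scaling, the median signal was lower on the skin arrays (9.49 to 52.3) than on the prostate arrays (54.8 to 200). It was lowest on skin DHT array 1 (9.49) and skin vehicle array 2 (11.8). 2 skin arrays stood apart in their tissue markers. Skin vehicle array 1 had a mean level of -1.66 over 14 skeletal muscle genes, against 5.74 to 8.79 on the other 5 skin arrays, and skin DHT array 1 had 1.67 over 3 hair follicle genes, against 4.71 to 6.60 on the others. Outlier spots are left out of such list means, here and below. On skin DHT array 2 the 5.74 thus lacks Actn3, Ckm, Myl11 and Tnni2, and the 5.42 lacks Lgals7. The 6.60 on skin vehicle array 3 lacks Krt75, and the 3.48 on prostate DHT array 2 lacks Krt18. The part of these tissue markers in the results was not tested, and beside list values that moved with these arrays the value without them is given. In tissue pieces such as these, fewer cells of a type and less RNA per cell cannot be told apart.

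The effect of DHT differed between prostate and skin for 332 of the 23032 genes (1.44%). It was higher in prostate for 261 (1.13%) and lower in prostate for 71 (0.308%), and 3657 (15.9%) had an unadjusted p below 0.05. The median difference over all genes was 0.15, which is the shift against which a list's median is to be read. Within prostate alone, 1702 genes rose (7.39%) and 751 fell (3.26%), 2453 in all (10.7%). Counts of called, risen or fallen genes in the lists below are to be read against these shares. Counts of signs in skin are to be read against the 48.2% of all genes that were below 0 there. Within skin alone, 0 genes passed with limma, the lowest adjusted p being 0.75, while 1197 (5.2%) had an unadjusted p below 0.05, of which 645 (2.8%) were below 0 and 552 (2.4%) above 0. With all 23 usable arrays of the series in 1 fit, 6 genes passed in skin. Of the 332 genes, 320 were also called in prostate alone, which shares its arrays with the difference, and 314 had the larger absolute change in prostate. Their median absolute effect was 1.73 in prostate and 0.44 in skin, where the median SE over all genes was 0.22 and 0.35. The count fell with every prostate array left out, to 96 without prostate vehicle array 1, 106 without vehicle array 2, 241 without vehicle array 3, 138 without DHT array 1, 118 without DHT array 2 and 114 without DHT array 3. It was 217 without skin DHT array 3 and 331 without both skin arrays that stood apart, of which 65.0% were higher in prostate, against 78.6% with all 12 arrays.

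**Figure D1:**
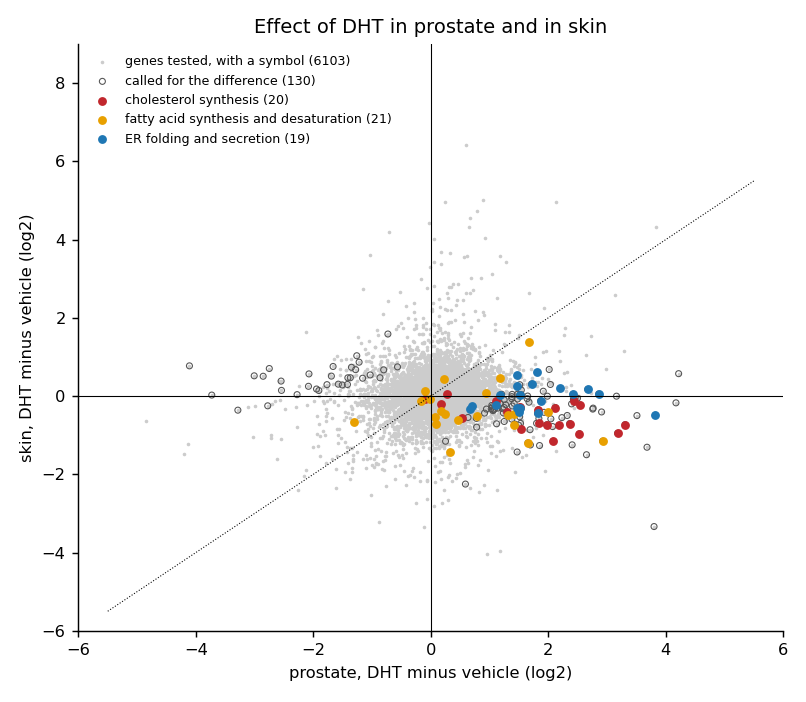
Each point is 1 of the 6103 tested genes with a symbol, at its log2 effect of DHT in prostate (horizontal axis) and in skin (vertical axis); the dotted line marks equal effects, the 130 genes called for the difference are set apart, and lists named in the text are coloured. The called genes spread widely along the prostate axis and little along the skin axis.

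The plot of effects in prostate against skin shows the genes that moved in opposite directions in its lower right and upper left. Among the 332 called genes, 279 (1.21% of those tested) had effects of opposite sign: 211 (0.916%) were above 0 in prostate and below 0 in skin, and 68 (0.295%) were the reverse. Genes of opposite sign made up 47.6% of all genes tested, and opposite effects add up in the difference, so a high share among called genes follows in part from the choice. A stricter description asks that the DHT and vehicle arrays did not overlap in either tissue. This held for 111 called genes (0.482%), of which 75 (0.326%) were higher with DHT in prostate and lower in skin and 36 (0.156%) were the reverse, against 527 (2.29%) with opposite signs and no overlap at any p. Since no gene passed in skin alone, the skin side of each is given as its value on each array with limma's unadjusted p.

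Of the gene lists described here, cholesterol synthesis had the largest share of called genes. All 20 of its genes on the array were tested (21 listed), and the difference was higher in prostate for 14 and lower for 0. The difference was above 0 for 19 of the 20, as for 58.4% of all genes. In prostate 16 rose and 0 fell, with 19 of 20 above 0 (63% of all genes), and in skin 19 of 20 were below 0 (48.2% of all genes), 5 of them at an unadjusted p below 0.05. Above 0 in prostate and below 0 in skin were 18 of 20, against 29.4% of all genes. The median difference of the list was 2.48, from a median effect of 1.91 in prostate and -0.48 in skin, against 0.15, 0.16 and 0.02 over all genes. Vehicle and DHT arrays did not overlap in prostate for 18 of the 20 (37% of all genes) and in skin for 6 (12.2%). In vehicle animals 13 of the 20 had a higher mean level in skin than in prostate, and for 12 of these the order turned with DHT, as it did for 8.6% of all genes. Without both skin arrays that stood apart, 15 of 20 were below 0 in skin, the list's skin median was -0.15, its median difference 1.93, and 9 were called.

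The first steps of the pathway join acetyl groups into HMG-CoA. Hmgcs1, the cytosolic HMG-CoA synthase, had log2 levels of 2.46, 2.67 and 2.81 in prostate with vehicle and 6.31, 5.38 and 6.17 with DHT. In skin it had 4.23, 3.90 and 3.84 with vehicle and 3.01, 3.27 and 3.50 with DHT. The groups overlapped in neither tissue, and DHT turned the order, from skin above prostate to prostate above skin. It rose 9.89-fold in prostate (effect 3.31 ± 0.27, SE, limma adjusted p = 0.00265), and its effect in skin was -0.73 ± 0.26 (unadjusted p = 0.0272). The difference of 4.04 ± 0.37 (limma adjusted p = 0.00119) remained called with any 1 of the 12 arrays left out. A second probe of the gene gave 3.98 in prostate and -1.05 in skin. Acat2, the thiolase that makes the acetoacetyl-CoA used by Hmgcs1, had 1.52, 1.40 and 1.75 in vehicle prostate and 4.07, 4.14 and 4.05 with DHT, and in skin 3.92, 3.87 and 3.98 with vehicle and 2.31, 3.20 and 3.37 with DHT. Again the groups were apart in both tissues, and the difference was 3.49 ± 0.36 (adjusted p = 0.00246).

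The middle steps turn mevalonate into isoprenoid units and join them into squalene. Idi1, the isomerase of isopentenyl diphosphate, had 1.44, 1.42 and 1.98 in vehicle prostate and 4.97, 4.55 and 4.86 with DHT, while skin had 3.67, 2.97 and 3.35 with vehicle and 1.48, 2.70 and 2.97 with DHT. The groups were far apart in prostate and met without overlap in skin. Its difference was 4.13 ± 0.51 (adjusted p = 0.00636), from 3.18 in prostate and -0.95 in skin. Mvd, which removes the carboxyl group of mevalonate diphosphate, differed by 2.77 ± 0.29 (adjusted p = 0.00246), almost all of it from prostate (2.54), with -0.23 ± 0.26 in skin. Fdps, which makes farnesyl diphosphate, differed by 3.07 ± 0.46 (adjusted p = 0.0134). Fdft1, the squalene synthase, differed by 2.55 ± 0.39 (adjusted p = 0.0128), with only -0.12 ± 0.34 in skin. Mvk, the mevalonate kinase, missed the threshold at 1.09 ± 0.28 (adjusted p = 0.0875), and Pmvk and Ggps1 had effects near 0 in both tissues.

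The late steps make lanosterol and trim it to cholesterol. Sqle, the squalene epoxidase, had 1.26, 1.21 and 1.34 in vehicle prostate and 3.35, 3.45 and 3.25 with DHT, and in skin 2.73, 2.01 and 1.73 with vehicle against 0.15, 1.08 and 1.79 with DHT. The prostate groups were far apart and the skin groups overlapped, with skin DHT array 1 the lowest of all. Its difference was 3.23 ± 0.53 (adjusted p = 0.0161). The difference was called too for Lss, the lanosterol synthase (2.42), for Cyp51, which removes a methyl group of lanosterol (2.71, adjusted p = 0.0493), for the sterol oxidase Msmo1 (2.93), for the reductases Tm7sf2 (1.79), Hsd17b7 (2.18) and Dhcr7 (1.71), of which the last makes cholesterol itself. Sc5d (2.37, adjusted p = 0.0779), Nsdhl (1.24, 0.0867) and Ebp (0.39, 0.617) missed the threshold. Prostate DHT array 2 was left out as an outlier spot for Fdps and Msmo1, whose DHT group in prostate thus had 2 values.

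With each array left out in turn, 6 of the 14 calls held in all 12 fits: Hmgcs1, Acat2, Idi1, Mvd, Fdft1 and Msmo1. The count of called cholesterol genes was 7 without prostate vehicle array 1, vehicle array 2 or DHT array 2, 8 without prostate DHT array 1, and 9 without prostate DHT array 3, skin DHT array 1 or skin DHT array 2. Fdps lost its call only without prostate DHT array 1 (adjusted p = 0.0607), and Sqle without prostate vehicle array 1, vehicle array 2 or DHT array 2 (at most 0.0540).

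**Figure D2:**
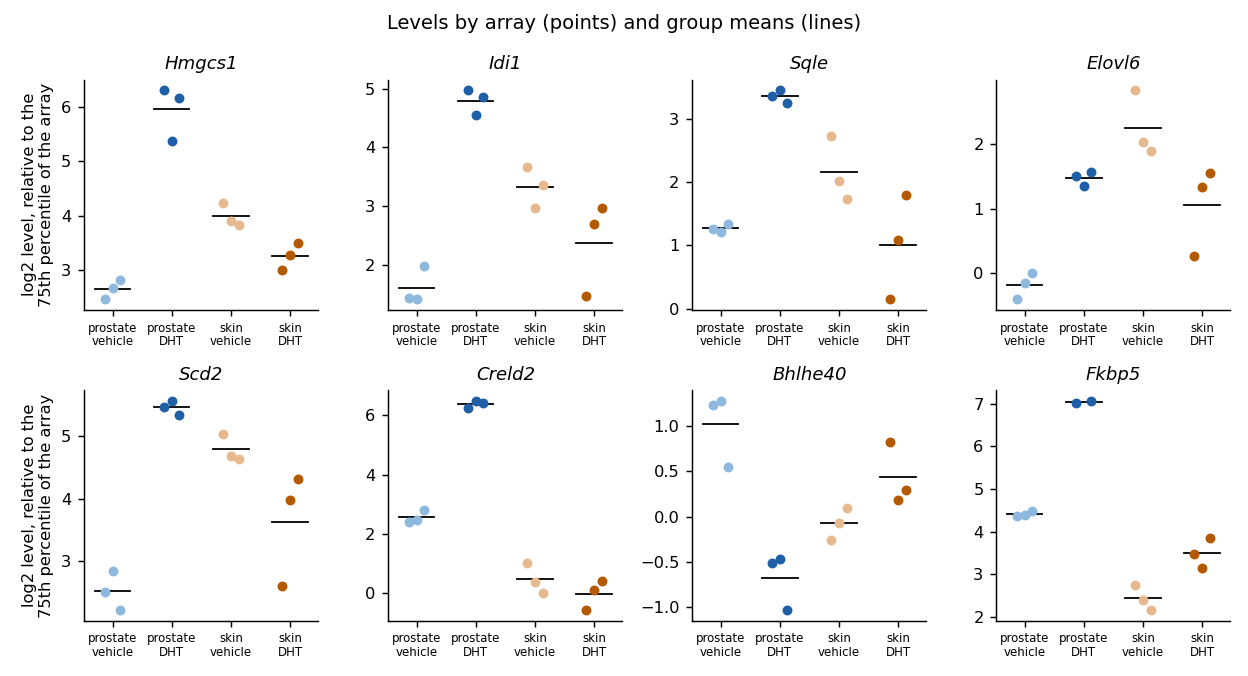
Log2 level (relative to the array's 75th percentile, vertical axis) of 8 genes on each of the 12 arrays, grouped as prostate vehicle, prostate DHT, skin vehicle and skin DHT; points are arrays and lines are group means. For Hmgcs1, Idi1, Sqle, Elovl6 and Scd2 the mean with DHT lies above that with vehicle in prostate and below it in skin. For Fkbp5 the mean with DHT lies above in both tissues.

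The plot of 8 genes on each array shows the turn of order for the lipid genes and how far skin DHT array 1 lay below the other arrays of its group. DHT and vehicle arrays lay on different slides (3 slides with vehicle and 3 with DHT), each slide holding 1 prostate and 1 skin array, so that a shift of a whole slide and the effect of DHT in 1 tissue cannot be told apart, while prostate minus skin within a slide is free of such a shift. On that scale the mean level over the 20 cholesterol genes was -0.86, -0.37 and -0.27 on the vehicle slides and 2.18, 1.25 and 1.34 on the DHT slides, with no overlap. The 1.25 does not compare the same genes in both tissues, since its prostate mean lacks Fdps and Msmo1, outlier spots on prostate DHT array 2. For Hmgcs1 prostate minus skin was -1.77, -1.23 and -1.02 with vehicle and 3.30, 2.11 and 2.68 with DHT. The slides did not overlap for 17 of the 20 genes, against 26.5% of all genes tested. They did not overlap for any of the 332 called genes, 14 of which are among the 20. Those were called for this difference on the same arrays, so their separation follows largely from the choice. With the slide as a fixed block, which leaves 4 residual degrees of freedom in place of 8, 73 genes were called, 66 of opposite sign and 5 of cholesterol synthesis. With the slide as a random block (correlation 0.15) the counts were 576, 485 and 16.

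The promoters shown are those of 3 of the 6 cholesterol genes called in every fit with 1 array left out. All 3 hold CCAAT. Of the other genes called in every fit, Msmo1 holds CCAAT too. For Acat2 and Fdft1 no CCAAT match was found or no promoter was available. They are the RefSeq sequences of rat build GRCr8 from 250 bases before to 50 bases after the gene's start, written 5′ to 3′ on the gene's strand. They lie at chr2:53382054-53382353 on the plus strand for Hmgcs1, at chr19:67414925-67415224 on the minus strand for Mvd and at chr17:66547475-66547774 on the minus strand for Idi1. Capitals mark matches to CCAAT on either strand, written ATTGG where the match is on the reverse strand.
Hmgcs1: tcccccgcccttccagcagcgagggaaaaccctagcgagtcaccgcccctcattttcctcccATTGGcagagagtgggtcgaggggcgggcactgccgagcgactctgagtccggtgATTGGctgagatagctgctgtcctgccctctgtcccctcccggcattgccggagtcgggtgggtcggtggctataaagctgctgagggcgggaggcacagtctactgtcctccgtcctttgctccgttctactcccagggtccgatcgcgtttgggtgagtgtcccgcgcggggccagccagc
Mvd: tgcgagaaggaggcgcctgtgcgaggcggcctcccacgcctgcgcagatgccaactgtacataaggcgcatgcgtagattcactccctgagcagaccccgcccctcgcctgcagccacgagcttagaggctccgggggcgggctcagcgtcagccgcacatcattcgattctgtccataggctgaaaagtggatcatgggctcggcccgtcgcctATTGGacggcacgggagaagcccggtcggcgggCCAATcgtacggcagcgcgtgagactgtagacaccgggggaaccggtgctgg
Idi1: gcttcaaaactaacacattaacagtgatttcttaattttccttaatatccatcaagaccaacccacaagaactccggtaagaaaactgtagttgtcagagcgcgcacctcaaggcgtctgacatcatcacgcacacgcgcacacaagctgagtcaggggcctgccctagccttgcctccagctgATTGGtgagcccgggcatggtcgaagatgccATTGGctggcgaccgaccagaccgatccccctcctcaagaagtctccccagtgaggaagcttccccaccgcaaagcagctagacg
Of the 20 cholesterol genes 16 had a promoter in the RefSeq table. CCAAT, the letters bound by the factor NF-Y, stood in 13 of the 16 (81.2%), against 37.5% of all 33469 promoters of the table and 39% of the 4970 promoters of tested genes. The letters TCACNCCAC, 1 form of the sterol regulatory element, stood in 0 of the 16, which says only that these letters are not in these windows, and in 1.12% of all promoters. The CCAAT search and the promoters shown were chosen after the values were seen. A match is a description of the sequence and not a measured binding site.

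Few regulators of the pathway changed. Of 11 genes of sterol regulation, uptake and export that were tested, 0 were called for the difference, 2 rose and 1 fell in prostate. Srebf2, the sterol-responsive transcription factor of the pathway, rose by 0.95 ± 0.23 in prostate (adjusted p = 0.0490) and had -0.07 ± 0.28 in skin, and its difference of 1.01 missed the threshold (adjusted p = 0.197). Insig1, which holds SREBP in the ER, rose by 1.63 in prostate and had -0.87 ± 0.59 in skin (difference 2.51, adjusted p = 0.104). Its 4 probes all had this pattern. Insig2 fell by 1.01 in prostate (adjusted p = 0.0111) and had 0.01 in skin.

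Fatty acid synthesis and desaturation showed the same signs in fewer genes. Of 21 tested genes (23 on the array, 26 listed), 3 were called higher in prostate (1.13% of all genes) and 0 lower. In prostate 8 rose (7.39% of all genes) and 1 fell (3.26%). In skin 16 were below 0 (48.2% of all genes), 4 of them at an unadjusted p below 0.05 (2.8%). The median difference was 0.82, from 0.46 in prostate and -0.46 in skin. Opposite signs were seen in 14 genes, against 47.6% of all genes. Of the 21 genes, 12 had been higher in skin than in prostate with vehicle. For 6 of them the order turned, as for 8.6% of all genes. Without both skin arrays that stood apart, 15 were below 0 in skin, the skin median was -0.19, and 4 were called.

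Scd2, a desaturase that puts the first double bond into saturated fatty acids, had 2.51, 2.84 and 2.23 in vehicle prostate and 5.46, 5.55 and 5.34 with DHT. In skin it had 5.03, 4.68 and 4.63 with vehicle and 2.61, 3.97 and 4.31 with DHT. Both pairs of groups were apart, with skin DHT array 1 again the lowest. It rose 7.60-fold in prostate (2.93 ± 0.20, adjusted p = 0.00215), its effect in skin was -1.15 ± 0.46 (unadjusted p = 0.0407), and the difference was 4.08 ± 0.53 (adjusted p = 0.00724). The effect in skin ran from -1.49 to -0.64 with 1 array left out, and 2 other probes of the gene gave -0.65 and -0.84 in skin and 2.32 and 3.01 in prostate.

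Elovl6, which lengthens palmitate to stearate, had -0.40, -0.15 and 0.02 in vehicle prostate and 1.51, 1.35 and 1.56 with DHT, and in skin 2.82, 2.02 and 1.89 with vehicle and 0.27, 1.33 and 1.54 with DHT. It rose by 1.65 ± 0.17 in prostate and had -1.20 ± 0.43 in skin, and no groups overlapped. Its difference of 2.85 ± 0.48 (adjusted p = 0.0180) lost its call in 5 of 12 fits, those without any prostate array but vehicle array 3 (at most 0.0652). Acsl3, which activates fatty acids by joining them to CoA, differed by 2.15 ± 0.32 (adjusted p = 0.0110) and was called in all 12 fits. It had 1.27, 1.47 and 1.14 in vehicle prostate and 2.61, 2.90 and 2.64 with DHT, and in skin 2.01, 1.87 and 1.32 with vehicle and 0.78, 1.03 and 1.18 with DHT, again with no overlap.

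The other fatty acid genes missed the threshold for the difference. Fasn, the fatty acid synthase, rose by 0.79 in prostate (adjusted p = 0.0277), had -0.52 ± 0.36 in skin and differed by 1.31 (adjusted p = 0.147). Acly, which makes cytosolic acetyl-CoA from citrate, differed by 1.81 (adjusted p = 0.0820), and Thrsp, a lipogenic regulator, by 2.39 (0.0722). Fads1, the delta-5 desaturase, had the lowest skin effect of those named here (-1.44 ± 0.46, unadjusted p = 0.0160) with 0.32 ± 0.25 in prostate. Idh1, which makes NADPH in the cytosol, was the gene that fell in prostate, by 1.31 (adjusted p = 0.0282), and it had -0.66 in skin. Mlxipl, the carbohydrate-responsive factor of lipogenesis, went the same way in both tissues, with 1.67 in prostate (adjusted p = 0.00519) and 1.38 ± 0.60 in skin (unadjusted p = 0.0539).

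**Figure D3:**
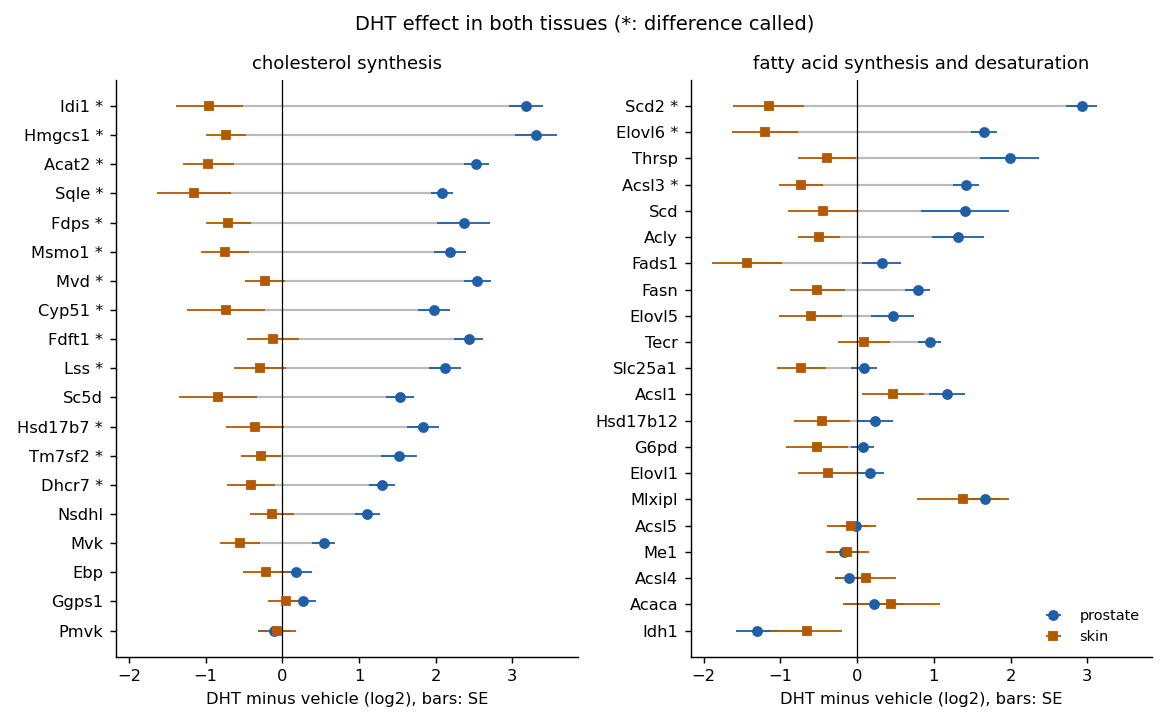
Log2 effect of DHT (horizontal axis, mean DHT minus mean vehicle) in prostate (circles) and skin (squares) for 19 of the 20 cholesterol genes and for the 21 fatty acid genes tested, with bars of ± 1 SE; an asterisk marks genes whose difference was called. In the cholesterol panel most prostate values lie right of 0 with most skin values left of it, and 13 genes carry an asterisk, against 3 in the fatty acid panel.

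The plot of lipid gene effects shows that the skin bars are wide beside their distance from 0, while the prostate bars are short. Of 20 tested genes of fatty acid oxidation 0 were called for the difference, 17 were above 0 in skin, and the medians were 0.33 in prostate and 0.46 in skin. Without both skin arrays that stood apart 1 was called lower in prostate. Of 8 tested genes of triglyceride synthesis and storage, 1 was called higher in prostate (Cidec), 3 rose in prostate, and 7 were below 0 in skin with a median of -0.18, or 4 with a median of -0.06 without skin vehicle array 2.

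Fat cell markers moved with the lipid genes in prostate. Of 11 tested adipocyte markers 9 rose in prostate (7.39% of all genes) and 0 fell, and 3 were called higher for the difference (1.13% of all genes). Their mean level was 0.38, 0.48 and 0.57 on the vehicle prostate arrays and 2.10, 1.91 and 1.42 with DHT, and 2.14 to 2.53 with vehicle and 2.21 to 2.28 with DHT in skin. Their medians were 1.37 in prostate and -0.22 in skin. Cidec, a lipid droplet protein, had -0.47, -0.59 and -0.18 in vehicle prostate and 1.53, 1.18 and 1.11 with DHT, and in skin -0.54, -0.32 and -0.90 with vehicle and -1.65, -1.65 and -1.05 with DHT, with no overlap in either tissue and a difference of 2.55 ± 0.34 (adjusted p = 0.00854). Adipoq, the fat hormone adiponectin, differed by 2.22 ± 0.32 (adjusted p = 0.0105), from 1.53 in prostate and -0.70 in skin. Both were called in all 12 fits with 1 array left out. Pparg, the master regulator of fat cells and also a sebocyte gene, differed by 1.90 ± 0.40 (adjusted p = 0.0458), a call that held in 1 of the 12 fits, that without skin vehicle array 3. Fabp4, a fatty acid carrier of fat cells, rose by 1.40 in prostate and missed the threshold for the difference (1.92, adjusted p = 0.0507). The part of fat tissue on the prostate arrays in the rise of the lipid genes was not tested. Of 7 sebaceous gland genes 1 was called (Pparg), all 7 were higher in skin than in prostate with vehicle, and their mean level in skin was 0.40 to 0.77 with vehicle and 0.19 to 0.92 with DHT, so these groups overlapped.

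ER folding and secretion genes rose in prostate. All 19 on the array were tested (26 listed), and in prostate 17 rose (7.39% of all genes) and 0 fell. For the difference 9 were called higher (1.13% of all genes) and 0 lower. The medians were 1.51 in prostate, 0.02 in skin (-0.08 with normexp or quantile normalization) and 1.78 for the difference. In skin 9 of the 19 were below 0 and 10 above, a split that rested on single arrays: 6 were below 0 without skin vehicle array 1 or skin DHT array 1, 2 without both (median 0.30), 12 without skin vehicle array 2 or 3 and 14 without skin DHT array 2. With the slide as a fixed block 3 of the 19 were called for the difference. Within slides their mean prostate minus skin level was 0.82, 1.33 and 1.34 with vehicle and 3.25, 2.34 and 2.77 with DHT. The prostate mean behind the 2.34 lacks Hyou1 and Hspa5, outlier spots on prostate DHT array 2.

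Creld2, a secreted disulfide isomerase of the ER, had 2.41, 2.47 and 2.81 in vehicle prostate and 6.27, 6.49 and 6.41 with DHT, and in skin 1.02, 0.39 and 0.01 with vehicle and -0.57, 0.11 and 0.40 with DHT. The prostate groups were far apart and the skin groups overlapped. It rose 14.1-fold in prostate and its difference was 4.31 ± 0.43 (adjusted p = 0.00208), called in all 12 fits, as were the differences of the calcium-binding chaperone Calr (2.50) and the translocon subunit Sec61a1 (1.91). Hyou1 (2.80) and Hsp90b1 (1.99), both chaperones of the ER, the disulfide isomerase Pdia4 (2.37), the co-chaperones Dnajb11 (2.26) and Dnajc3 (1.49) and the translocon-associated Ssr1 (1.41) were called as well. The central chaperone Hspa5 rose by 2.20 ± 0.24 in prostate, had 0.22 ± 0.32 in skin, and missed the threshold for the difference (1.98, adjusted p = 0.0506), and so did the isomerase Pdia6 (1.81, 0.0520). The count fell to 4 without prostate vehicle array 1 or 2 or prostate DHT array 2 or 3 and to 6 without prostate DHT array 1, and Hyou1 lost its call only without prostate DHT array 1 (0.0653). Prostate DHT array 2 was left out as an outlier spot for Hyou1 and Hspa5.

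The Creld2 promoter is shown because it has the largest difference of the list and holds the letters of the ER stress response element, CCAAT, 9 bases and CCACG. It lies at chr7:121789134-121789433 on the plus strand of GRCr8 (RefSeq), from 250 bases before to 50 after the start, with the match on the reverse strand in capitals.
Creld2: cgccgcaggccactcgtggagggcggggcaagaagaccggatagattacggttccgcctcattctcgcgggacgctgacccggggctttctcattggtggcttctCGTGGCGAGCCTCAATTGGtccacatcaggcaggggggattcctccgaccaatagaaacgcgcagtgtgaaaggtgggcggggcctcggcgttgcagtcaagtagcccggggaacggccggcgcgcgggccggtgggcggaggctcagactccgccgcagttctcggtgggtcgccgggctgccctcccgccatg
The letters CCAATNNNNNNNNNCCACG on either strand stood in 6 of the 15 ER folding promoters in the table (Calr, Canx, Creld2, Dnajc3, Hsp90b1 and Hspa5), in 10 of the 4970 promoters of tested genes (0.201%) and in 22 of all 33469 (0.0657%). CCAAT, which is part of these letters, stood in 14 of the 15. The motif and the promoter were chosen after the values were seen.

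Polyamine enzymes also rose in prostate. Of 7 tested, 4 rose (7.39% of all genes) and 2 were called higher for the difference (1.13%). Srm, the spermidine synthase, had 2.21, 2.22 and 2.24 in vehicle prostate and 4.77, 4.67 and 4.72 with DHT, and in skin 3.02, 2.84 and 3.28 with vehicle and 3.11, 3.13 and 2.73 with DHT. The prostate groups were far apart, the skin groups overlapped, and the difference was 2.55 ± 0.27 (adjusted p = 0.00246). Sms, the spermine synthase, differed by 1.99 ± 0.35 (adjusted p = 0.0200), a call that ended without prostate vehicle array 1 or 2 or prostate DHT array 2 or 3 (at most 0.0718). Odc1, the first enzyme of the path, rose by 0.75 in prostate, had -0.56 ± 0.31 in skin, and missed the threshold for the difference (1.31, adjusted p = 0.0966). A second, dimmer probe of Odc1 gave larger effects, 1.14 in prostate and -1.13 in skin (difference 2.27). With the dimmest tested probe of each gene, 3 of the 7 polyamine genes were called higher for the difference.

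Among named genes, 45 called genes had opposite signs and no overlap in either tissue, and the 8 of each direction with the largest smaller effect are shown. Those higher with DHT in prostate and lower in skin were Kcnmb4, Kif2c, Bex4, Alpl, Pex11a and the lipid genes Elovl6, Scd2 and Acat2. Kif2c, a motor protein that takes microtubules apart in dividing cells, had 0.61, 0.54 and 1.05 in vehicle prostate and 2.32, 1.98 and 2.31 with DHT, and in skin -1.62, -2.14 and -2.06 with vehicle and -3.52, -2.82 and -3.77 with DHT. Its rise of 1.47 ± 0.20 in prostate and its -1.43 ± 0.33 in skin (unadjusted p = 0.00347) were of like size, and the difference was 2.90 ± 0.39 (adjusted p = 0.00854), called in all 12 fits. In the cell cycle list, by contrast, all 15 tested genes were below 0 in both tissues and 0 were called for the difference. In skin 11 of the 15 were below 0 at an unadjusted limma p below 0.05 (2.8% of all genes). Vehicle and DHT arrays did not overlap in skin for 12 of the 15 (12.2% of all genes). The medians of the list were -0.61 in prostate and -1.52 in skin. The skin median was -0.97 without skin DHT array 1 and -0.91 without both skin arrays that stood apart. In these fits the median difference of 0.72 was 0.04 and -0.07.

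Kcnmb4, a regulatory subunit of calcium-activated potassium channels, had -2.62, -2.17 and -3.16 in vehicle prostate and -0.59, 0.28 and 0.32 with DHT, and in skin -0.36, -0.05 and -2.10 with vehicle and -2.49, -2.36 and -2.16 with DHT. The skin groups were barely apart, and the difference was 4.15 ± 0.69 (adjusted p = 0.0166). Pex11a, which drives the division of peroxisomes, differed by 3.65 ± 0.56 (adjusted p = 0.0128), with 2.41 in prostate and -1.25 in skin, while a second probe gave 2.47 and -0.15. Bex4 differed by 3.12 ± 0.52 and Alpl, the tissue-nonspecific alkaline phosphatase, by 2.95 ± 0.50. The call of Kcnmb4 ended without prostate vehicle array 1 or prostate DHT array 2 or 3, that of Bex4 without prostate vehicle array 2 or prostate DHT array 1 or 3, and that of Alpl without prostate vehicle array 1 or prostate DHT array 3 (adjusted p at most 0.0610).

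The reverse group, lower with DHT in prostate and higher in skin, held Slc22a5, Hmox1, Fut7, Cebpd, Ntf4, Plpp3, Csf1 and Bhlhe40. Slc22a5, a carnitine transporter, had 0.19, 0.37 and 0.62 in vehicle prostate and -1.66, -1.10 and -1.06 with DHT, and in skin -3.78, -4.18 and -3.87 with vehicle and -3.42, -3.07 and -3.06 with DHT. It fell by 1.66 in prostate, had 0.76 ± 0.26 in skin (unadjusted p = 0.0215), and differed by -2.42 ± 0.32 (adjusted p = 0.00854). It was well above background on 2 of 3 arrays of each skin group, and its second probe gave 0.15 in skin. Csf1, the growth factor of macrophages, had 3.95, 3.66 and 3.12 in vehicle prostate and 1.69, 1.46 and 1.35 with DHT, and in skin 1.06, 1.04 and 1.13 with vehicle and 1.14, 2.05 and 1.75 with DHT. With vehicle it was higher in prostate, and with DHT the tissues were alike (prostate minus skin 2.50 and -0.14). Its difference was -2.64 ± 0.38 (adjusted p = 0.0108). Slc22a5 and Csf1 were called in all 12 fits.

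Cebpd, a transcription factor of acute responses, had 5.72, 5.80 and 5.03 in vehicle prostate and 4.16, 4.24 and 4.31 with DHT, and in skin 3.07, 3.11 and 3.36 with vehicle and 4.23, 3.88 and 3.45 with DHT. It fell by 1.28 in prostate (adjusted p = 0.0206), had 0.68 ± 0.29 in skin (unadjusted p = 0.0516), and its difference was -1.95 ± 0.37 (adjusted p = 0.0278). Hmox1, the haem-degrading oxygenase, differed by -2.09 ± 0.39 (adjusted p = 0.0284), from a fall of 1.35 in prostate and 0.74 in skin. Fut7, a fucosyltransferase of leukocyte ligands, is 1 of 2 genes here that were not called in prostate alone: it had -0.73 ± 0.26 there (adjusted p = 0.117) and 1.59 ± 0.37 in skin (unadjusted p = 0.00328), with a difference of -2.32 ± 0.46 (adjusted p = 0.0347). The other is Plpp3, a lipid phosphatase, with -0.57 in prostate (adjusted p = 0.0894), 0.75 in skin and a difference of -1.31 ± 0.26 (adjusted p = 0.0369). Ntf4, a neurotrophin, differed by -1.47 ± 0.29 (adjusted p = 0.0325). The calls of Cebpd and Hmox1 held in 4 of the 12 leave-one-out fits, those of Fut7 and Ntf4 in 2, and that of Plpp3 in 1, and the adjusted p rose to at most 0.121.

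**Figure D4:**
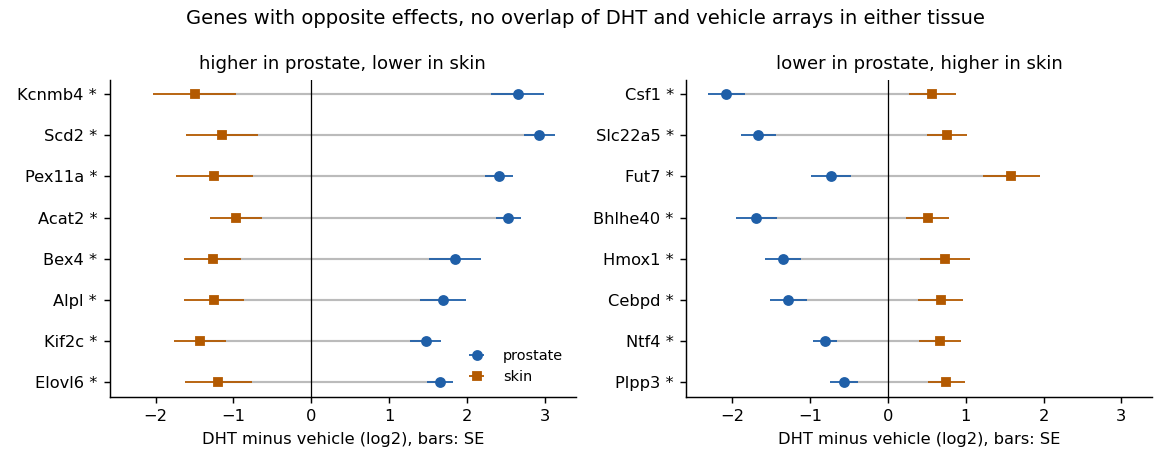
Log2 effect of DHT (horizontal axis) in prostate (circles) and skin (squares), with bars of ± 1 SE, for the 16 named genes whose effects had opposite signs with no overlap of groups in either tissue. The 8 genes of the left panel lie right of 0 in prostate and left of it in skin, and the 8 of the right panel the other way.

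In the plot of the 16 genes the effect in prostate lies farther from 0 than that in skin for all but Fut7 and Plpp3. Bhlhe40, a repressor of the circadian clock, had 1.24, 1.28 and 0.55 in vehicle prostate and -0.51, -0.47 and -1.03 with DHT, and in skin -0.25, -0.07 and 0.09 with vehicle and 0.82, 0.19 and 0.30 with DHT. Its order between the tissues turned, from prostate higher to skin higher, a turn seen in 5.84% of all genes, and the difference was -2.20 ± 0.38 (adjusted p = 0.0199). The call ended without prostate vehicle array 1 or 2 or prostate DHT array 3 (at most 0.0718). It was the 1 gene called among 13 clock genes. Of these 13, 12 had opposite signs (47.6% of all genes), and in prostate 4 fell (3.26%) and 2 rose (7.39%). The medians of the list were -0.31 in prostate and 0.50 in skin. Per3 fell by 1.54 in prostate (adjusted p = 0.00412) with 0.69 ± 0.57 in skin, and Nr1d1, the repressor REV-ERB alpha, fell by 1.13 with 0.49 ± 0.38 in skin, and their differences of -2.23 and -1.62 missed the threshold (adjusted p = 0.123 for both). The skin median of the clock list was 0.31 without skin vehicle array 1, 0.13 without skin DHT array 1 and 0.04 without both. The labels do not give the hour of dosing or of tissue collection.

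Among the largest differences, Gal, the neuropeptide galanin, had -3.94, -3.25 and -3.26 in vehicle prostate and -0.31, -0.36 and 1.26 with DHT, and in skin -2.36, -0.25 and -2.68 with vehicle and -3.27, -3.61 and -2.33 with DHT. The prostate groups were apart and the skin groups overlapped, with skin vehicle array 2 far above the rest. Its difference of 4.99 ± 0.90 (adjusted p = 0.0239) held in 5 of the 12 fits (at most 0.0801). Kcnh2, a potassium channel, differed by 4.01 ± 0.51 (adjusted p = 0.00684), and Fut4, a fucosyltransferase, by 3.31 ± 0.27 (adjusted p = 0.00117), with a rise of 2.91 in prostate and -0.41 ± 0.26 in skin. Abo3, a glycosyltransferase of the blood group family, rose by 4.22 in prostate, had 0.57 ± 0.67 in skin, and differed by 3.65 ± 0.79 (adjusted p = 0.0494), a call that held in 2 of the 12 fits.

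Of the genes lower in prostate, Slc30a2, a zinc transporter, had 5.54, 5.14 and 4.78 in vehicle prostate and 1.82, 2.57 and 2.04 with DHT, and in skin -2.42, -1.75 and -1.25 with vehicle and -0.66, -1.53 and -1.68 with DHT. The prostate groups were far apart, the skin groups overlapped, and the difference was -3.52 ± 0.52 (adjusted p = 0.0112), called in all 12 fits. Rnd1, a small GTPase that loosens the cytoskeleton, differed by -3.45, Impa2, an inositol phosphatase, by -2.33, Niban1 by -2.31 and Myadm by -2.06, with skin effects between 0.04 and 0.70. Cxadr, an adhesion protein and virus receptor, differed by -2.53, and its 2 probes had skin effects of opposite sign (-0.25 and 0.16). Gstm1, a glutathione transferase, had 6.43, 6.30 and 6.55 in vehicle prostate and 5.08, 4.38 and 3.99 with DHT, with 0.18 in skin and a difference of -2.13 ± 0.40 (adjusted p = 0.0278). It was the 1 gene called among 16 of a list of genes tied to prostate regression, of which 3 fell and 0 rose in prostate. The calls of Gstm1, Rnd1 and Cxadr held in 4 of the 12 fits, that of Myadm in 3 and that of Niban1 in 1, while that of Impa2 ended without prostate vehicle array 1 or prostate DHT array 1 or 2.

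In 8 of the 332 called genes 1 of the 4 groups was on no array well above background, so that only a bound of the fold is known. The 4 of them named here were in the test through their bright group in prostate, and their calls are a description. Nppc, the natriuretic peptide CNP, was at least 4.36-fold higher with DHT in prostate, where no vehicle array was well above background. Bdnf, a neurotrophin, was at least 7.65-fold lower with DHT in prostate, where no DHT array was well above background. Gramd2a and S100g were at least 2.12-fold and 1.68-fold lower there.

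Most secretory products of the prostate were outside the test, which asks for signal in both tissues: 14 of 15 listed were on the array, 6 were tested and 1 was called higher in prostate, which became 3 without skin vehicle array 2 and 0 in 9 of the other fits that leave out an array. Andpro had 2.69, 4.32 and 5.48 in vehicle prostate and 8.48 and 7.44 with DHT, where prostate DHT array 2 was left out as an outlier spot. In skin it had -1.58, -3.77 and 0.33 with vehicle and -4.73, -4.70 and -5.60 with DHT, and stood well above background with vehicle on 2 of 3 arrays and with DHT on 1 of 3. Its difference, the largest of any named gene here, was 7.14 ± 1.43 (adjusted p = 0.0415), and the call held in 3 of the 12 fits (at most 0.152). Probasin was not tested. It had -3.91, -3.96 and -3.89 in vehicle prostate and 1.36, 2.36 and 2.35 with DHT. Krt18, a keratin of glandular epithelium, had 7.18, 7.87 and 7.84 in vehicle prostate and 8.52 and 7.92 with DHT, and in skin -0.05, 0.50 and 0.68 with vehicle and -2.47, -1.92 and -1.23 with DHT. Its difference of 2.84 ± 0.54 (adjusted p = 0.0332) thus came mostly from skin (-2.25 ± 0.39, unadjusted p = 0.000631), and it held in 2 of the 12 fits (at most 0.144). A second probe gave -0.08 in prostate and -1.92 in skin. Of the 6 prostate epithelium markers tested, 0 rose and 2 fell in prostate, Krt19 by 1.32 (adjusted p = 0.0108) and Krt8 by 0.89 (adjusted p = 0.0333), and Krt18 was the 1 called for the difference.

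Of 11 tested chemokines and other NF-kB targets, 2 were called lower in prostate for the difference and 0 higher. In prostate 3 fell and 0 rose, with 6 below 0 and 5 above, and in skin 9 were above 0. The median of -0.51 in prostate was 0.05 without prostate vehicle array 2 and -0.05 without prostate DHT array 2, and the median of 0.55 in skin was 0.10 without skin vehicle array 3, 0.24 without skin DHT array 1 and 0.30 without skin DHT array 2. Cxcl1, an attractant of neutrophils, had 1.21, 0.57 and -0.40 in vehicle prostate and -3.61, -3.82 and -3.52 with DHT, and in skin -4.79, -5.41 and -4.39 with vehicle and -5.28, -3.14 and -3.85 with DHT. It differed by -4.88 ± 0.75 (adjusted p = 0.0128) and was called in all 12 fits. Nfkb2, a subunit of NF-kB, differed by -2.05 ± 0.36 (adjusted p = 0.0219), with 0.14 in skin, and lost its call without any prostate array but vehicle array 3 (at most 0.0687). The mean level of 8 macrophage and leukocyte markers was 2.15, 2.39 and 1.61 on the vehicle prostate arrays and 1.70, 1.95 and 1.91 with DHT, groups that overlapped, and 0 of these markers were called. Within slides their mean prostate minus skin level did not overlap, with 1.49, 1.96 and 1.55 with vehicle and 1.35, 1.33 and 1.38 with DHT. Taken singly, 2 of the 8 markers had slides without overlap, against 26.5% of all genes.

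Known targets of steroid receptors had effects of opposite sign in 5 of 13 tested genes, against 47.6% of all genes. In prostate 3 rose and 1 fell, and 1 was called for the difference (Cebpd). Fkbp5, a co-chaperone of steroid receptors, had 4.36, 4.39 and 4.47 in vehicle prostate and 7.02 and 7.07 with DHT, with prostate DHT array 2 left out as an outlier spot, and in skin 2.76, 2.39 and 2.15 with vehicle and 3.46, 3.15 and 3.84 with DHT. It was higher with DHT in both tissues with no overlap, by 2.64 ± 0.17 in prostate and 1.05 ± 0.30 in skin (unadjusted p = 0.00954), and the difference was 1.59 ± 0.35 (adjusted p = 0.0602). Zbtb16, a transcription factor induced by steroids, had -1.17, -0.60 and 0.13 in vehicle prostate and 1.05, 0.88 and 0.91 with DHT, and in skin -1.71, -2.57 and -1.46 with vehicle and -0.21, -0.80 and -0.28 with DHT. Its effects were 1.49 in prostate (adjusted p = 0.0325) and 1.48 in skin (unadjusted p = 0.00467), a difference of 0.01 ± 0.51 whose sign turned with the probe (-0.45 for the dimmer one) and with quantile normalization (-0.30). Tsc22d3, a steroid-induced leucine zipper protein, rose by 1.13 in prostate and had 0.45 ± 0.25 in skin. Pdk4, a kinase that shuts down pyruvate dehydrogenase, was not tested because it was well above background on 0 of 6 prostate arrays. In skin it had -4.69, -2.88 and -1.95 with vehicle and 1.08, -0.45 and 0.52 with DHT, so all DHT arrays lay above all vehicle arrays.

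Several lists held no called gene with all 12 arrays. Of 18 immediate early genes, which respond within minutes to growth signals and tissue handling, 5 fell and 1 rose in prostate, with medians of -0.62 in prostate and -0.04 in skin. In skin 10 of the 18 were below 0, or 2 without skin vehicle array 1 (median 0.28) and 2 without both skin arrays that stood apart (median 0.35, with 2 genes called lower in prostate for the difference). Jun, a subunit of AP-1, fell by 1.01 in prostate with 0.17 in skin (difference -1.18, adjusted p = 0.101), and Btg2, an antiproliferative factor, fell by 1.78 with 0.09 in skin (difference -1.87, adjusted p = 0.110). Of 13 targets of ATF4 and stress 1 rose and 3 fell in prostate, with medians of -0.19 in prostate and -0.51 in skin, the latter -0.34 without skin vehicle array 1, -0.28 without skin vehicle array 3, -0.24 without skin DHT array 1 and 0.05 without both skin arrays that stood apart. Phgdh, the first enzyme of serine synthesis, came nearest to the threshold (difference 1.55, adjusted p = 0.0537), with 0.31 in prostate and -1.23 in skin.

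All 15 ribosome biogenesis genes were below 0 in skin, 0 of them at an unadjusted p below 0.05, and 10 were above 0 in prostate, where 0 rose. Their median difference was 0.38, and the snoRNP proteins Nop58 and Fbl had the smallest p (differences 1.18 and 0.91, adjusted p = 0.157 and 0.256). In the cell cycle list the kinase Aurka had the smallest p, with -0.50 in prostate and -1.52 in skin (difference 1.02, adjusted p = 0.238). Among fatty acid oxidation genes the dehydrogenase Acadl had -0.38 in prostate and 0.87 in skin (difference -1.25, adjusted p = 0.201), and Cpt2, of the carnitine shuttle, had 1.28 and 0.45 (difference 0.83, adjusted p = 0.206). Among 7 keratinocyte markers and 14 skeletal muscle genes 0 were called as well.

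**Figure D5:**
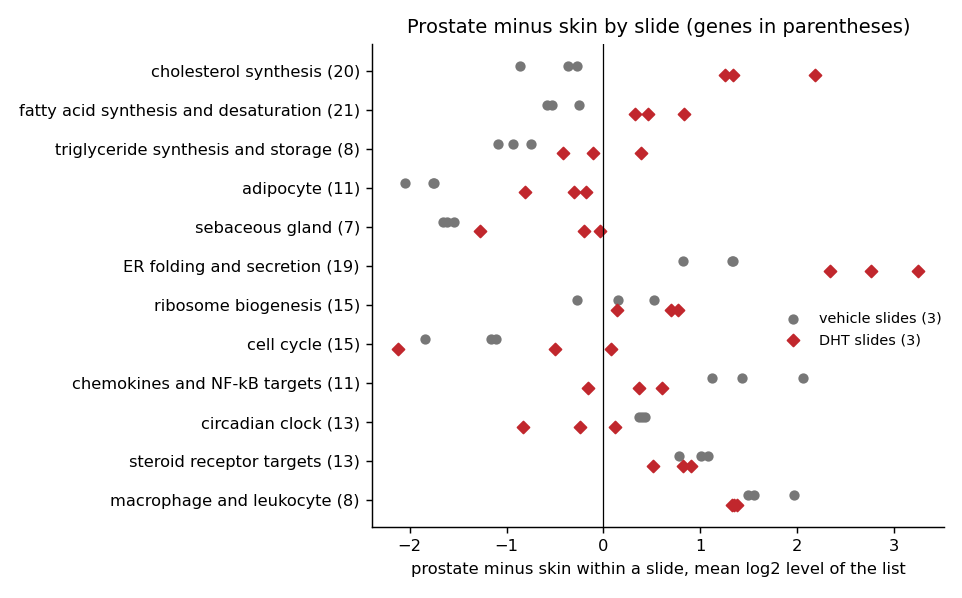
Mean log2 level in prostate minus that in skin (horizontal axis) on each of 6 slides, 3 with vehicle and 3 with DHT. The 12 gene lists are rows, and each point is 1 slide. For cholesterol synthesis, fatty acid, triglyceride, ER folding, adipocyte and sebaceous gland lists the 3 DHT slides lie right of all vehicle slides. For the chemokine, clock and macrophage lists they lie left, and for the ribosome biogenesis, cell cycle and steroid receptor lists the slides overlap. Means leave out outlier spots.

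The plot of prostate minus skin within slides gives the lists on the scale that a shift of a whole slide does not move. Fatty acid genes went from -0.59, -0.53 and -0.26 on the vehicle slides to 0.83, 0.46 and 0.32 on the DHT slides. Adipocyte markers went from -1.76, -2.05 and -1.75 to -0.18, -0.30 and -0.81, so that skin stayed above prostate on all 6 slides. Chemokines went from 1.43, 2.06 and 1.12 to 0.37, -0.16 and 0.60, and clock genes from 0.43, 0.37 and 0.40 to -0.83, 0.12 and -0.25. None of these groups of slides overlapped.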

How the data were processed

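The members and the gene lists were chosen with earlier results of these data known. Amplified Cy3-labelled RNA was hybridised to 1-colour arrays, per the labels' protocols. Each deposited file holds the spot intensity of 1 array. The scanner software, Agilent Feature Extraction, had subtracted the background without normalizing between arrays, and its version is 10.5.1.1 in the file headers and 10.1 in the submitters' processing notes, which also name limma. Of 42429 spots, 1417 control spots and outlier spots were left out (0 to 273 outliers on an array, 1531 on prostate vehicle array 3), and 0 spots were saturated. The number of arrays limits the precision. The share of probes well above background ran from 54.6% to 73.1% over the 12 arrays.

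The value of a spot was its log2 intensity minus the array's 75th percentile, with no averaging over spots. A gene with several probes is given by the probe with the highest mean signal, and 10804 of 41012 probes had 1 symbol in the annotation used. The 12 arrays were fitted with limma 3.58.1 in R 4.3.3 (4 group means, eBayes, 8 residual degrees of freedom), and p-values were adjusted over all 23032 genes. The fit was tested on simulated data with known changes. Named genes were the 12 largest differences in each direction, the 8 genes of opposite sign without overlap in each direction ranked by the smaller of their effects, genes with a group below background, all members of the cholesterol and fatty acid lists, up to 4 called members of any other list, and Fkbp5, Zbtb16, Pdk4, Pbsn and Odc1. Insig2, Fabp4, Per3, Nr1d1, Tsc22d3, Krt19, Krt8 and the ER genes beyond Creld2, Calr, Sec61a1 and Hyou1 were named after their values were seen. Alternatives were slide and replicate blocks, normexp background correction (on the median signal, since the mean signal planned for it is not a column of the files), quantile normalization, the filter on dim probes, array weights, the probe of a gene, all 23 usable arrays in the fit and each array left out. A fit without both skin arrays that stood apart was added after the data were seen. The replicate numbers were not taken as pairs: of 12 pairs of samples with the same number on different slides 1 had a correlation of deviations from the group means above 0.1 (median -0.18). A prostate and a skin sample of the same number and treatment share a slide, and 4 of these 6 pairs had one above 0.1 (median 0.21, lowest -0.03). The values of 1 cholesterol gene, which is counted in its list, are not reported here. Promoter sequences are from RefSeq (GRCr8), matched by symbol.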

Additional observations from a re-analysis of the deposited data

Results flagged for a closer look

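The results here are differences between the tissues in the response to DHT, each from limma's test of the difference of effects. The effect differed for 332 genes, of which 279 had opposite signs. Counted over the 332, whatever the signs, 14 were genes of cholesterol synthesis, 3 of fatty acid synthesis and 9 of ER folding (3 with the slide as a fixed block). Among the genes with opposite signs and no overlap in either tissue, those higher in prostate had differences of log2 effects of 4.15 for Kcnmb4, 2.90 for Kif2c, 3.12 for Bex4, 2.95 for Alpl, 3.65 for Pex11a, 2.85 for Elovl6, 4.08 for Scd2 and 3.49 for Acat2. Those lower in prostate had -2.42 for Slc22a5, -2.09 for Hmox1, -2.32 for Fut7, -1.95 for Cebpd, -1.47 for Ntf4, -1.31 for Plpp3, -2.64 for Csf1 and -2.20 for Bhlhe40.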

How the results depend on the processing

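Among the 12 fits with 1 array left out, the genes that differed numbered 96 to 337, those of opposite sign 87 to 295, the cholesterol genes called 7 to 13, the fatty acid genes called 2 to 4 and the genes changed in prostate 628 to 2689 (706 without prostate vehicle array 1, 950 without vehicle array 2, 1142 without DHT array 1, 895 without DHT array 3). Genes that differed, and those of opposite sign, numbered 73 and 66 with the slide as a fixed block, 576 and 485 with the slide as a random block, 177 and 136 with normexp background correction, 598 and 479 with array weights, 64 and 58 with dim probes kept, and 873 and 750 with all 23 arrays in the fit. With quantile normalization 219 differed. Cholesterol genes called were 5 with the slide as a fixed block, 5 without the filter, 9 with quantile normalization and 9 without both skin arrays that stood apart. Fatty acid genes called were 5 with the slide as a random block, 1 without the filter and 5 with all 23 arrays. Genes changed in prostate were 768 with normexp, 834 without the filter and 3726 with array weights, and genes changed in skin were 6 with all 23 arrays. ER genes called were 4 with the replicate number as a block, 3 and 13 with the slide as a fixed and a random block, 2 with dim probes kept, 14 with all 23 arrays and 4 to 9 with 1 array left out. With the replicate number as a block, 125 genes differed, 111 of opposite sign and 9 of cholesterol synthesis, and 648 changed in prostate. The numbers were not taken as pairs, since not every same-numbered pair deviated together. The cause of these changes was not tested, beyond the fewer samples or degrees of freedom that a left-out array or a block leaves.

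The difference of Zbtb16, 0.01 with all arrays, turned to -0.30 with quantile normalization and -0.45 with its dimmer probe, and ran from -0.30 to 0.35 with 1 array left out. That of Mlxipl, 0.29 with all arrays, ran from -0.20 without skin vehicle array 3 to 0.83 without skin vehicle array 1, and was -0.05 without skin DHT array 2. Relative to the median of all genes, the scalings differ: it was 0.15 as reported, -0.11 with normexp and 0.14 with quantile normalization. Signal over background limits what can be said of dim probes: genes well above background on fewer than 3 arrays of a tissue were not tested.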
